A study of Homo sapiens with 9 samples.

Results

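The chemokine ligands described here are 10 genes, CXCL1, CXCL2, CXCL3, CXCL5, CXCL6, CXCL8, CXCL12, CXCL16, CCL5 and CCL20. They were chosen by name, and the array read them with 18 of its 54613 probe sets other than controls, or 10 of 19775 genes with a symbol of their own. The arrays, of the Affymetrix type Human Genome U133 Plus 2.0, hold RNA of 3 human breast cancer cell lines, with 3 arrays per line and 9 in all. B6TC is a GFP positive, estrogen-independent line recovered from a tumor grown without added estrogen, and its labels describe it as a fusion of both other lines, which are called the parental lines below. MDA-MB-231 is estrogen receptor negative, and the cells used were 1 clone that carries GFP and resistance to G418. ZR-75-1 is estrogen receptor positive and carries GFP with resistance to puromycin. All lines were grown in McCoy's 5A medium with fetal bovine serum, with no further treatment named for the RNA. The labels call the arrays technical replicates and name no separate cultures, so every p-value below measures the spread between arrays of 1 line and not between cultures.

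Chemokines are small secreted proteins that draw cells along a gradient by binding receptors that span the membrane and signal through G proteins. CXCL1, CXCL2, CXCL3, CXCL5, CXCL6 and CXCL8 carry the amino acids glutamate, leucine and arginine before their first cysteines, the ELR motif, bind CXCR2 and in part CXCR1, and attract neutrophils. Their genes are classic targets of the transcription factor NF-kB, and tumor cells that make them recruit myeloid cells and promote the growth of vessels. CXCL12 acts on CXCR4 and is taken up by ACKR3, CXCL16 is a membrane-bound ligand of CXCR6 that proteases can release, and CCL20 binds CCR6.

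The deposited values are log2 expression values, so a difference of 1 is a 2-fold change, and levels of different probe sets are not set against each other. A level of 6 on 3 or more arrays was asked of a probe set before testing, which left 21095 probe sets and 10751 genes. Of the ligands, 5 probe sets of 4 genes passed. CXCL1 passed through the B6TC arrays alone, the CXCL8 probe set 202859_x_at through the B6TC and MDA-MB-231 arrays, and both CXCL12 probe sets and CXCL16 through the ZR-75-1 arrays alone, so a difference in the matching direction was close to built in for them. The same holds for other genes named below that reached 6 in only some of the lines. No background level of a probe set is among the deposited values, so whether a level under 6 lies above background is not known, and a fold against such a level holds for the deposited values and may understate the difference. The other 13 probe sets are given from a fit to all 54613 probe sets without the filter.

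The arrays had medians of 4.89 to 4.96 and 33.9% to 34.8% of probe sets at a level of 6 or more. A list of luminal markers (ESR1, GATA3, KRT19, CDH1 and EPCAM) averaged between 6.69 and 7.96 per B6TC array, between 6.60 and 6.71 per MDA-MB-231 array and between 11.5 and 11.6 per ZR-75-1 array. The list took the probe set of each gene with the highest mean, which for ESR1, the estrogen receptor gene, was 211234_x_at, with line means of 6.30, 6.64 and 7.19 in the same order of lines. At the ESR1 probe set 205225_at the B6TC arrays read 3.50, 3.53 and 4.26, the MDA-MB-231 arrays 3.27, 3.32 and 3.35, and the ZR-75-1 arrays 10.25, 10.09 and 10.14, so the direction between B6TC and MDA-MB-231 cells differed between these probe sets and the third B6TC array was the highest of its line at 205225_at. The mesenchymal markers (VIM, CAV1, EGFR, AXL and CD44) averaged 11.6 in B6TC as in MDA-MB-231 cells, and at most 5.72 per ZR-75-1 array. The third B6TC array stood apart from the other two. Its luminal mean was the 7.96, against 6.76 and 6.69, and it exceeded the mean of the other two, by a median of 0.38, at 213 of the 226 probe sets with a mean of 8 or more in ZR-75-1 cells, under 6 in MDA-MB-231 cells and a difference of 3 or more. Most ligand differences of B6TC are therefore given with and without that array, and those of other genes only in part. Of 8 leukocyte markers on the array none reached a mean of 6 in any line, and PTPRC, which defines leukocytes, had line means of 3.25 (B6TC), 3.42 (MDA-MB-231 cells) and 3.26 (ZR-75-1). Of 7 fibroblast and endothelial markers 2 reached 6 for B6TC cells, as did 3 for MDA-MB-231 cells and 1 for ZR-75-1 cells, led by COL1A1 at 7.15, 7.27 and 7.09. These COL1A1 levels are of 217430_x_at, its probe set with the highest mean. In the same order of lines, COL1A1 had means of 4.77, 3.59 and 7.22 at 1556499_s_at and of 4.20, 4.29 and 6.55 at 202310_s_at. Its other probe sets stayed under 6 on all arrays. The bacterial poly-A RNAs added before labeling had line means of 9.08 (B6TC), 5.68 (MDA-MB-231 cells) and 7.54 (ZR-75-1). The 3′ minus 5′ difference, a sign of RNA quality, was 0.67, 0.32 and 0.73 at ACTB and 0.29, 0.07 and 0.21 at GAPDH in the same order of lines, with MDA-MB-231 arrays below all others. These controls moved with the line, so their part in the results cannot be told apart from that of the line and was not tested.

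The ELR ligand genes lie in 1 cluster on chromosome 4 of GRCh38.p14, at chr4:73740569-73743716 for CXCL8, chr4:73836678-73838760 for CXCL6, chr4:73869393-73871308 for CXCL1, chr4:73995642-73998677 for CXCL5, chr4:74036589-74038689 for CXCL3 and chr4:74097040-74099195 for CXCL2. CXCL12 lies at chr10:44370165-44385097, CXCL16 at chr17:4733533-4739928, CCL5 at chr17:35871491-35880360 and CCL20 at chr2:227813842-227817556. Promoters of 8 of the 10 genes were in the RefSeq table, each with 250 bases before the start site and 50 after it, and those of CXCL16 and CCL5 were not. Both strands were searched for GGNNNTTCC, a pattern of sites that NF-kB binds, and for TGANTCA, a pattern of AP-1 sites, which do not overlap each other in these promoters. GGAATTTCC fits the NF-kB pattern on both strands and was counted once. The first pattern was found in 20.1% and the second in 7.71% of 35116 promoters of 300 bases. All 6 ELR ligand promoters held the same letters GGAATTTCC, which 0.461% of the promoters hold and which were picked out after the matches were seen. Counted from the start site, with bases before it negative, the match began at -78 in CXCL1 and CXCL3, -77 in CXCL2, -90 in CXCL5, -89 in CXCL6 and -91 in CXCL8. The stretches around the match are shown, read 5′ to 3′ on the strand of the gene with matches in capitals, because all 6 genes hold the letters, those called between lines and those not called alike.
CXCL1: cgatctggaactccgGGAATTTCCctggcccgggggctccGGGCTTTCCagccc
CXCL2: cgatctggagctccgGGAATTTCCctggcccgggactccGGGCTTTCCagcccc
CXCL3: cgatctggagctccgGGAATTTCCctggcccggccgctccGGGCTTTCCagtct
CXCL5: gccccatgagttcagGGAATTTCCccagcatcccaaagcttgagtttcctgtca
CXCL6: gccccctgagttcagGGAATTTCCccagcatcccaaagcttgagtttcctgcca
CXCL8: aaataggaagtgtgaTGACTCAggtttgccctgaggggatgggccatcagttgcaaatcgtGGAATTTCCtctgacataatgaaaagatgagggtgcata
CCL20: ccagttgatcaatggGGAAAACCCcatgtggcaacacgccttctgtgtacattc
These are chr4:73869300-73869353 on the plus strand for CXCL1, chr4:74099234-74099287 on the minus strand for CXCL2, chr4:74038729-74038782 on the minus strand for CXCL3, chr4:73998729-73998782 on the minus strand for CXCL5, chr4:73836574-73836627 on the plus strand for CXCL6, chr4:73740417-73740516 on the plus strand for CXCL8 and chr2:227813748-227813801 on the plus strand for CCL20.

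CXCL1, CXCL2 and CXCL3 shared an unbroken run of 23 bases there, ctccgGGAATTTCCctggcccgg, and a further match, GGGCTTTCC, at -53. CXCL5 and CXCL6 shared a run of 45 bases, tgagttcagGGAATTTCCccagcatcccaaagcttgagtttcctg. CXCL8 was the 1 ligand with a match to the AP-1 pattern, TGACTCA, at -137. CCL20 held GGAAAACCC, which fits the NF-kB pattern on the opposite strand, and the CXCL12 window held neither pattern. A match is a description of letters and not of binding.

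CXCL8, the main neutrophil attractant of human cells, was highest in B6TC cells. At 202859_x_at it read 7.67, 7.85 and 7.66 on B6TC, 6.46, 6.46 and 6.38 on MDA-MB-231 and 3.86, 3.56 and 3.66 on ZR-75-1 arrays. The 3 lines did not overlap, and the order was B6TC, MDA-MB-231, ZR-75-1. The B6TC level was 2.45-fold above MDA-MB-231 cells, a log2 difference of 1.29 ± 0.08 (SE, 95% interval 1.12 to 1.47, limma adjusted p = 6.47e-07). It was 16.4-fold above ZR-75-1 cells, a log2 difference of 4.03 (95% interval 3.86 to 4.21, limma adjusted p = 1.88e-11), and MDA-MB-231 cells were 6.68-fold above ZR-75-1 cells (limma adjusted p = 2.56e-10). The ZR-75-1 level was not shown to lie above background, so both folds may be lower bounds. Without the third B6TC array the log2 difference of B6TC was 1.33 against MDA-MB-231 cells and 4.07 against ZR-75-1 cells. In a bulk sample, fewer cells with a transcript and less of it per cell cannot be told apart.

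The CXCL8 probe set 211506_s_at did not pass the filter and showed a smaller contrast. It read 5.73, 5.72 and 5.78 on B6TC, 5.43, 5.53 and 5.68 on MDA-MB-231 and 4.61, 4.30 and 4.45 on ZR-75-1 arrays. B6TC and MDA-MB-231 arrays did not overlap, yet in the fit without the filter their log2 difference of 0.20 was not called (95% interval 0.00 to 0.39, limma adjusted p = 0.123). B6TC was 1.29 above ZR-75-1 (limma adjusted p = 2.97e-07), and MDA-MB-231 was 1.09 above ZR-75-1 (limma adjusted p = 1.19e-06). With the third B6TC array left out, these differences of B6TC were 0.18 and 1.27. The 2.45-fold difference between B6TC and MDA-MB-231 cells therefore rests on 202859_x_at. Both CXCL8 probe sets, 202859_x_at and 211506_s_at, are of kinds that may bind several transcripts.

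CXCL1, a ligand of CXCR2, had the same order of lines. Its single probe set, 204470_at, read 6.68, 6.58 and 6.57 on B6TC, 5.35, 5.30 and 5.27 on MDA-MB-231 and 4.33, 3.96 and 4.57 on ZR-75-1 arrays, with no overlap between lines. B6TC was 2.47-fold above MDA-MB-231 cells, a log2 difference of 1.30 ± 0.12 (SE, 95% interval 1.03 to 1.58, limma adjusted p = 9.28e-06). It was 5.01-fold above ZR-75-1 cells, a log2 difference of 2.32 (95% interval 2.05 to 2.60, limma adjusted p = 2.4e-08). MDA-MB-231 cells were 2.03-fold above ZR-75-1 cells (95% interval of the log2 difference 0.75 to 1.30, limma adjusted p = 1.83e-05). The log2 differences of B6TC were 1.32 and 2.34 when the third array was left out. The MDA-MB-231 and ZR-75-1 levels were not shown to lie above background, so the folds of B6TC may be lower bounds.

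CXCL2, a close copy of CXCL1, was near the level of 6 in B6TC cells. At 209774_x_at it read 6.12, 6.28 and 5.24 on B6TC, 5.02, 4.88 and 4.99 on MDA-MB-231 and 3.63, 3.84 and 3.34 on ZR-75-1 arrays. The lines did not overlap, but the third B6TC array was closer to the MDA-MB-231 arrays than to the other B6TC arrays. The probe set 209774_x_at, too, is of a kind that may bind several transcripts. In the fit without the filter B6TC was 1.89-fold above MDA-MB-231 cells, a log2 difference of 0.92 ± 0.23 (SE, limma adjusted p = 0.0112). Without the third B6TC array the log2 difference was 1.24 (limma adjusted p = 0.000122), and over the leaving out of each array in turn it ran between 0.72 and 1.24 with an adjusted p of at most 0.0452. B6TC was 2.28 above ZR-75-1 (limma adjusted p = 7.47e-06), or 2.60 without the third array, and MDA-MB-231 was 1.36 above ZR-75-1 on the log2 scale (limma adjusted p = 0.00045).

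The other CXCL2 probe sets did not follow this order. The probe set 230101_at lay between 3.18 and 3.44 on all 9 arrays. The probe set 1569203_at read 3.22, 3.15 and 3.22 on B6TC, 3.34, 3.68 and 3.53 on MDA-MB-231 and 3.18, 3.01 and 3.17 on ZR-75-1 arrays. Its log2 difference of B6TC minus MDA-MB-231 was -0.32 (limma adjusted p = 0.0183), a call that was kept in 3 of 6 fits with an array left out, with adjusted p between 0.0043 and 0.0672, and 0.0401 without the third B6TC array. The direction of CXCL2 between B6TC and MDA-MB-231 cells thus differed between its probe sets.

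CXCL3, another close copy of CXCL1, was low in all lines. Its probe set 207850_at read 4.42, 4.48 and 4.71 on B6TC, 4.30, 4.30 and 4.29 on MDA-MB-231 and 4.11, 3.86 and 4.16 on ZR-75-1 arrays, with the lines in the order of CXCL1 and no overlap. B6TC was 0.24 above MDA-MB-231 on the log2 scale, which was not called (95% interval 0.03 to 0.45, limma adjusted p = 0.0859 without the filter, and 0.269 without the third B6TC array). B6TC was 0.49 above ZR-75-1 (limma adjusted p = 0.0012), and 0.40 without the third array. MDA-MB-231 was 0.25 above ZR-75-1 (limma adjusted p = 0.0496), a call kept in 1 of 6 fits with an array left out. Since CXCL1, CXCL2 and CXCL3 are close copies, how far their short probes separate the transcripts was not tested.

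CXCL5 and CXCL6, which epithelial cells release to attract neutrophils, were at the bottom of the range of the array. The 3 CXCL5 probe sets lay between 2.23 and 2.90 and the CXCL6 probe set between 2.31 and 2.56 over all 9 arrays. CCL5, an attractant of T cells, lay between 5.06 and 5.56 at 1555759_a_at, between 4.05 and 4.35 at 204655_at and between 2.49 and 2.78 at 1405_i_at. None of these 7 probe sets was called by limma without the filter in the 3 comparisons, and 2 of the 21 tests had an unadjusted p under 0.05, where 30.7%, 48.1% and 46.5% of all probe sets were called in the comparisons of B6TC with MDA-MB-231, B6TC with ZR-75-1 and MDA-MB-231 with ZR-75-1. The 95% intervals of their log2 differences ran between -0.42 and 0.36 in all. In fits with 1 array left out, the CXCL5 probe set 215101_s_at and the CXCL6 probe set were each called in 1 of 6 between B6TC and MDA-MB-231 cells, with lowest adjusted p of 0.0373 and 0.049 in limma. At the CXCL5 and CXCL6 levels the arrays do not tell whether the genes were off or below what the probes detect.

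**Figure D1:**
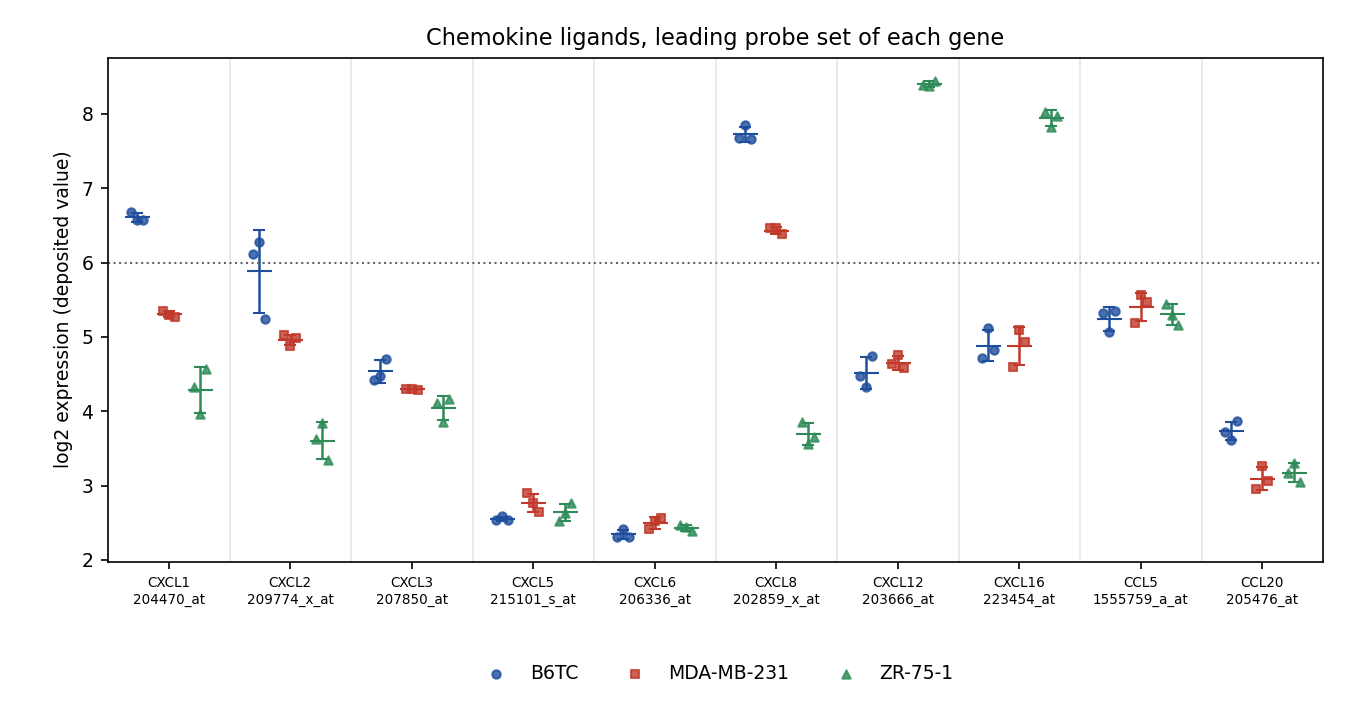
Log2 expression of the chemokine ligands at 1 probe set per gene, the one with the highest mean, with 3 arrays per line (B6TC as circles, MDA-MB-231 as squares, ZR-75-1 as triangles), with mean and SD as bars and a dotted line at the filter level of 6. CXCL1, CXCL2 and CXCL8 are highest in B6TC and lowest in ZR-75-1 cells, CXCL12 and CXCL16 are high in ZR-75-1 cells, and CXCL5, CXCL6 and CCL5 show no called difference.

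CXCL12, the ligand that holds stem cells and CXCR4 positive tumor cells in bone marrow, was high in ZR-75-1 cells. At 203666_at it read 4.48, 4.32 and 4.74 on B6TC, 4.63, 4.76 and 4.58 on MDA-MB-231 and 8.39, 8.37 and 8.45 on ZR-75-1 arrays. At 209687_at it read 3.93, 3.62 and 4.58 on B6TC, 3.63, 3.68 and 3.60 on MDA-MB-231 and 8.99, 9.19 and 9.12 on ZR-75-1 arrays. At both probe sets the B6TC and MDA-MB-231 arrays overlapped, and both lines lay below all ZR-75-1 arrays. B6TC was 14.8-fold below ZR-75-1 cells at 203666_at, a log2 difference of -3.89 (95% interval -4.11 to -3.68, limma adjusted p = 8.65e-11). At 209687_at it was 33.3-fold below, a log2 difference of -5.06 (95% interval -5.48 to -4.63, limma adjusted p = 1.78e-09). MDA-MB-231 cells were 13.4-fold and 44.1-fold below ZR-75-1 cells at the same probe sets. The B6TC and MDA-MB-231 levels were not shown to lie above background, so these folds too may be lower bounds. The differences of B6TC from ZR-75-1 cells were -4.01 and -5.33 without the third B6TC array.

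Between B6TC and MDA-MB-231 cells the CXCL12 probe sets pointed opposite ways. The log2 difference was -0.14 at 203666_at (95% interval -0.36 to 0.07, limma adjusted p = 0.214) and 0.41 at 209687_at (95% interval -0.02 to 0.83, limma adjusted p = 0.0856). The third B6TC array was the highest B6TC array at both. Without it the differences were -0.26 at 203666_at (limma adjusted p = 0.0132) and 0.14 at 209687_at (limma adjusted p = 0.228), and without the second B6TC array the difference at 209687_at was 0.62 (limma adjusted p = 0.00846). No direction is given for CXCL12 between these lines.

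CXCL16, a ligand that is also a scavenger receptor for oxidized lipids, was likewise high in ZR-75-1 cells. Its probe set 223454_at read 4.72, 5.12 and 4.82 on B6TC, 4.60, 5.10 and 4.93 on MDA-MB-231 and 8.03, 7.82 and 7.97 on ZR-75-1 arrays. The B6TC and MDA-MB-231 arrays interleaved, with a log2 difference of 0.00 (95% interval -0.29 to 0.30, limma adjusted p = 0.978). Both lay 8.3-fold to 8.4-fold below ZR-75-1 cells, at log2 differences of -3.06 for B6TC (limma adjusted p = 5.55e-09) and -3.06 for MDA-MB-231 (limma adjusted p = 5.4e-09). With the third B6TC array left out, B6TC differed by 0.04 from MDA-MB-231 cells and by -3.02 from ZR-75-1 cells. The B6TC and MDA-MB-231 levels of CXCL16 were not shown to lie above background, so its folds may be lower bounds.

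CCL20, which attracts cells with CCR6 and is induced by inflammatory cytokines, read 3.72, 3.62 and 3.87 on B6TC, 2.96, 3.26 and 3.06 on MDA-MB-231 and 3.17, 3.30 and 3.05 on ZR-75-1 arrays. The B6TC arrays lay above all others, while the parental lines overlapped. In the fit without the filter B6TC was 1.56-fold above MDA-MB-231 cells (log2 difference 0.64, limma adjusted p = 0.000604) and 1.48-fold above ZR-75-1 cells (log2 difference 0.56, limma adjusted p = 0.000652). The log2 differences were 0.58 and 0.50 without the third B6TC array. All values were far below the filter level. The parental lines differed by -0.08 on the log2 scale (95% interval -0.30 to 0.14).

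**Figure D2:**
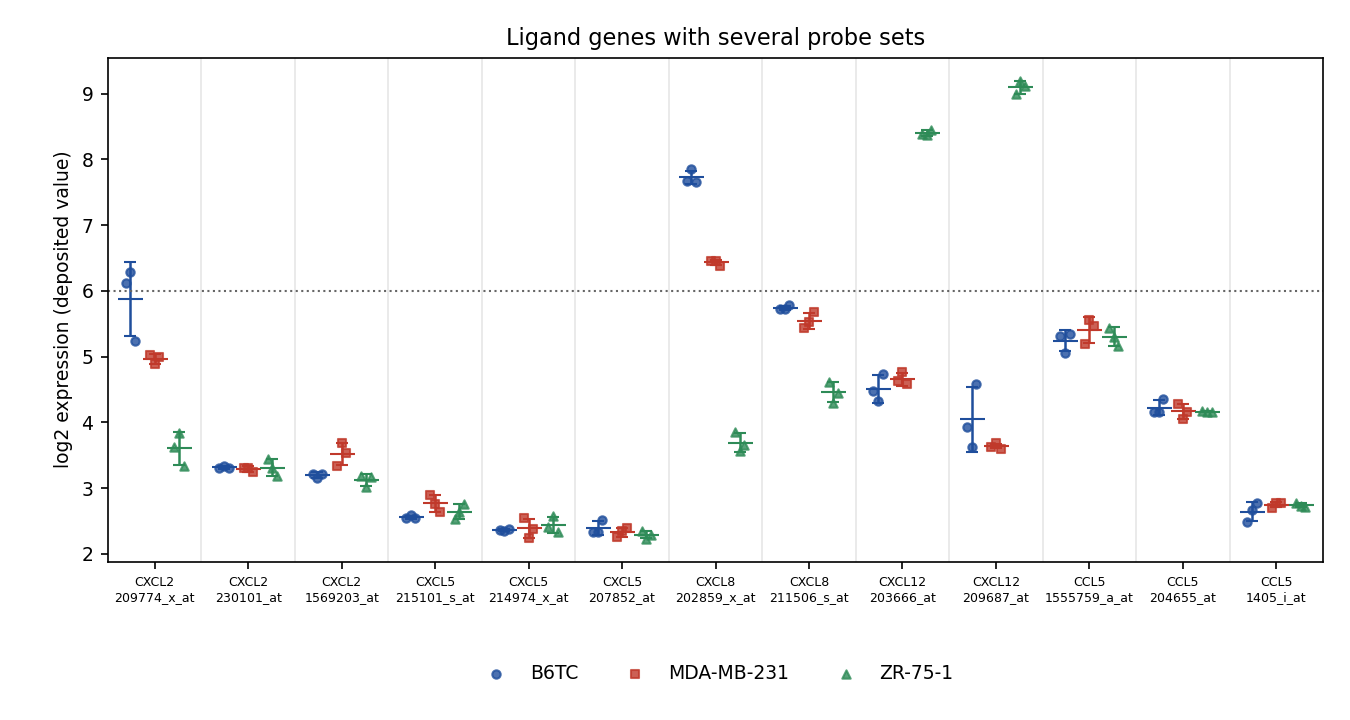
Log2 expression of each probe set of the 5 ligand genes with more than 1 probe set, with 3 arrays per line (B6TC as circles, MDA-MB-231 as squares, ZR-75-1 as triangles), with mean and SD as bars and a dotted line at 6. The CXCL2 order is seen at 209774_x_at and not at the other CXCL2 probe sets, the step between B6TC and MDA-MB-231 cells is wide at the CXCL8 probe set 202859_x_at and narrow at 211506_s_at, and both CXCL12 probe sets are high in ZR-75-1 cells.

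Most tested probe sets of the array differed between these lines, so the counts of ligands called are set beside that share. Between B6TC and MDA-MB-231 cells limma called 2 of the 5 tested ligand probe sets, CXCL1 and CXCL8, both higher in B6TC, against 65.1% of all tested probe sets, 33.9% higher and 31.3% lower. Those 2 were also at least 2-fold higher in B6TC, as were 2.57% of all tested probe sets, and 1.28% were at least 2-fold lower. Between B6TC and ZR-75-1 cells all 5 were called, 2 higher and 3 lower, against 83.7% of all, 43.0% higher and 40.6% lower. All 5 differed at least 2-fold, as did 17.5% (higher) and 13.2% (lower) of all. For MDA-MB-231 against ZR-75-1 the same 5 were called in the same directions and at least 2-fold, against 83.7% of all, 43.8% higher and 39.9% lower, and at least 2-fold 17.0% and 14.5%. These comparisons share arrays, and a tested probe set had passed a filter that favors a difference, so the counts are a description.

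Without the filter 5 of 18 ligand probe sets were called between B6TC and MDA-MB-231 cells, against 30.7% of all, 15.0% higher and 15.7% lower. They were CXCL1, CXCL8, CXCL2 (209774_x_at) and CCL20, higher in B6TC, and CXCL2 (1569203_at), lower. Between B6TC and ZR-75-1 cells 9 were called, against 48.1% of all, 21.6% higher and 26.4% lower, with both CXCL8 probe sets, CXCL1, CXCL2, CXCL3 and CCL20 higher and CXCL12 and CXCL16 lower in B6TC. For MDA-MB-231 against ZR-75-1 cells 9 were called, 6 higher and 3 lower, against 46.5% of all, 22.6% higher and 23.9% lower. CCL20 was called in both B6TC comparisons and was not among the parental calls, while CXCL2 (1569203_at) was.

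Without regard to a test, the arrays of B6TC lay wholly above those of MDA-MB-231 cells at 6 of the 18 probe sets and wholly below at 2, against 19.3% and 22.3% of all probe sets. Against ZR-75-1 cells the numbers were 6 above and 3 below, against 23.8% and 30.9% of all. MDA-MB-231 arrays lay wholly above ZR-75-1 arrays at 6 and below at 3, against 25.3% and 27.0% of all. In the filtered fit all 3 pairs of lines were called apart at 2 ligand probe sets, those of CXCL1 and CXCL8, and in the fit without the filter at 3, with CXCL2 (209774_x_at) added, each in the order B6TC, MDA-MB-231, ZR-75-1.

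**Figure D3:**
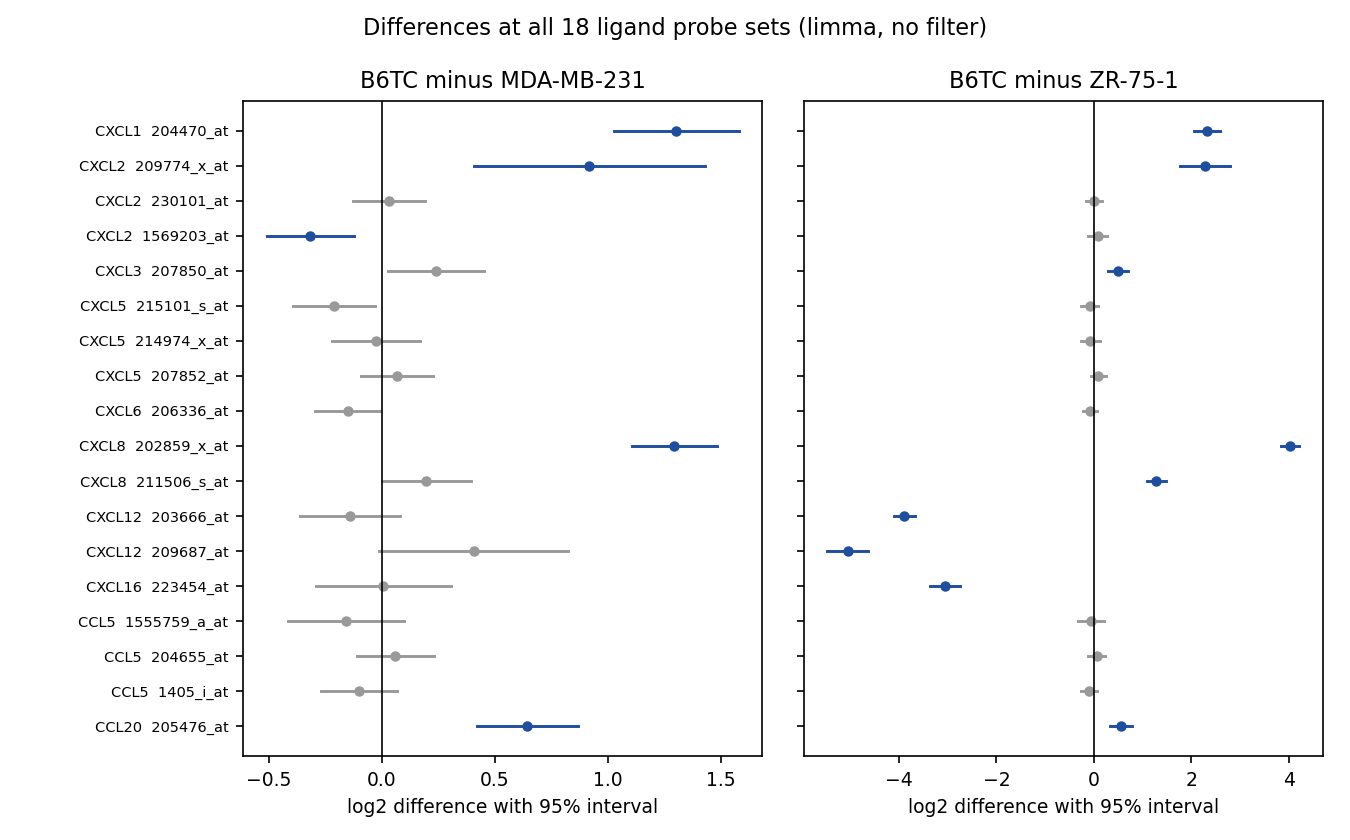
Log2 difference with its 95% interval at all 18 ligand probe sets, from limma without the filter, for B6TC minus MDA-MB-231 (left) and B6TC minus ZR-75-1 (right), on axes of different scale; blue marks an adjusted p of 0.05 or less and gray the rest. The left panel holds differences of 1.30 or less, and the right panel spans -5.06 for CXCL12 to 4.03 for CXCL8.

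The genes whose levels over the 9 arrays were most like a ligand were found by the root mean square of the difference after each gene was centered, over 10751 genes at most and for the 5 ligands whose line means spanned 2 or more. For CXCL1 they were VCAN, a matrix proteoglycan, at 0.076, FGF1, a growth factor, at 0.129, and PTGER4, a receptor of prostaglandin E2, at 0.132. For CXCL8 they were TSPAN8, a tetraspanin, at 0.126, SERPINE2, a protease inhibitor, at 0.134, and MICU3, a regulator of mitochondrial calcium uptake, at 0.164. For CXCL2 the nearest genes were farther off, with LINC01139 at 0.249, ZNF23 at 0.271 and CKMT2-AS1 at 0.274. For CXCL12 they were P2RY6, a nucleotide receptor, at 0.084, CREB3L4, a transcription factor, at 0.094, and TFF3, a secreted trefoil peptide of luminal cells, at 0.101. For CXCL16 they were MAP3K2-DT at 0.128, C1orf226 at 0.143 and CLEC11A, a secreted lectin, at 0.175. These values measure likeness over arrays of 3 lines only.

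Of 23 receptors of the family, 21 were on the array and 4 passed the filter. Between B6TC and MDA-MB-231 cells 1 of the 4 was called, higher in B6TC, where 36.5% of all 10751 genes were called higher and 28.5% lower at 1 probe set per gene. The median log2 difference of the 4 was -0.12, against 0.04 over all genes. That receptor was CXCR4, through which CXCL12 signals. At 217028_at it read 7.14, 7.51 and 7.38 on B6TC, 4.42, 4.19 and 4.48 on MDA-MB-231 and 9.41, 9.44 and 9.44 on ZR-75-1 arrays, so B6TC lay between the parental lines with no overlap. B6TC was 2.98 above MDA-MB-231 (limma adjusted p = 1.9e-08) on the log2 scale, and its difference from ZR-75-1 cells was -2.09 (limma adjusted p = 9.84e-09). At the other CXCR4 probe sets, 209201_x_at and 211919_s_at, B6TC was 1.03 and 1.04 above MDA-MB-231. The differences at 217028_at were 2.96 and -2.11 without the third B6TC array. CXCR4 of B6TC was thus above that of MDA-MB-231 cells at all 3 CXCR4 probe sets tested, while both lines lay below ZR-75-1 cells at CXCL12, its ligand.

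Between B6TC and ZR-75-1 cells 1 receptor was called higher and 2 lower, against 42.8% and 41.6% of all genes, with a median of -1.05 against -0.005 over all genes. ACKR3, which scavenges CXCL12, read 3.12, 2.87 and 3.39 on B6TC, 3.19, 3.53 and 3.21 on MDA-MB-231 and 8.51, 8.54 and 8.68 on ZR-75-1 arrays, a log2 difference of -5.45 for B6TC (limma adjusted p = 6.62e-11) and -5.27 for MDA-MB-231 against ZR-75-1. CCRL2, a receptor that does not signal in the usual way, read 7.19, 7.17 and 7.01 on B6TC, 7.48, 7.32 and 7.30 on MDA-MB-231 and 4.31, 4.34 and 3.74 on ZR-75-1 arrays, a log2 difference of 2.99 for B6TC against ZR-75-1 (limma adjusted p = 9.92e-09). ACKR3 passed the filter through the ZR-75-1 arrays alone and CCRL2 through the B6TC and MDA-MB-231 arrays, so these directions were close to built in. ACKR3 and CCRL2 were not called between B6TC and MDA-MB-231 cells, and without the third B6TC array the ACKR3 difference was -0.32 (limma adjusted p = 0.0395). For MDA-MB-231 against ZR-75-1 cells CCRL2 was called higher and CXCR4 and ACKR3 lower, against 42.5% and 41.9% of all genes.

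CXCR1, a receptor of CXCL8 and CXCL6, lay between 6.49 and 6.70 on all arrays and was not called. Whether this level lies above background is not known. CXCR2, the receptor shared by the ELR ligands, was below the filter level, with line means of 3.02 (B6TC), 3.21 (MDA-MB-231 cells) and 3.11 (ZR-75-1). CXCR6, the receptor of CXCL16, had means of 5.03 (B6TC), 5.08 (MDA-MB-231 cells) and 5.10 (ZR-75-1) at 211469_s_at, and CCR6, the receptor of CCL20, had means of 2.72 (B6TC), 2.69 (MDA-MB-231 cells) and 2.82 (ZR-75-1). Of the tested receptors that bind the ligands described here, CXCR4 and ACKR3 were called in at least 1 comparison and CXCR1 in none.

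**Figure D4:**
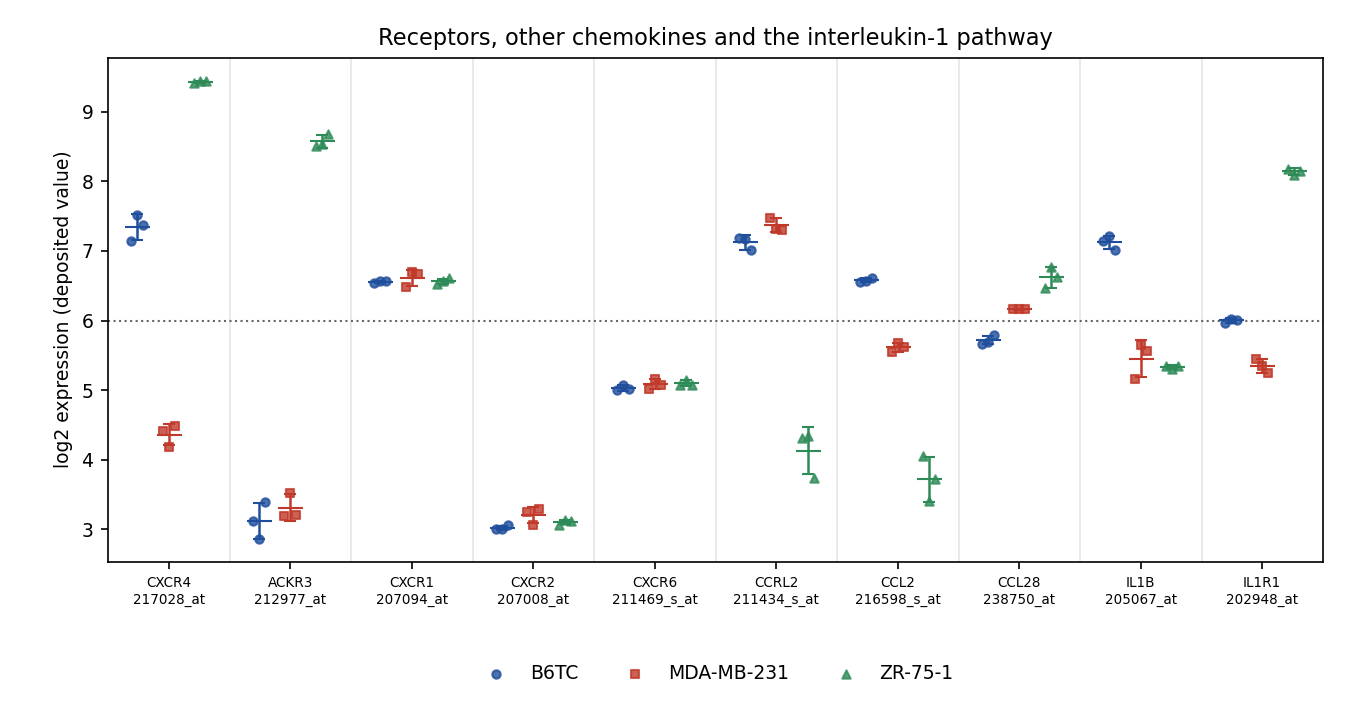
Log2 expression of receptors of the ligands, of CCL2 and CCL28, and of the interleukin-1 genes IL1B and IL1R1, with 3 arrays per line (B6TC as circles, MDA-MB-231 as squares, ZR-75-1 as triangles), with mean and SD as bars and a dotted line at 6. CXCR4 in B6TC lies between the parental lines, ACKR3 is high in ZR-75-1 cells, CCL2 is highest in B6TC and lowest in ZR-75-1 cells, and IL1B is highest in B6TC cells.

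Of 34 other chemokines 29 were on the array and 2 passed the filter. CCL2, the main monocyte attractant, read 6.56, 6.57 and 6.61 on B6TC, 5.55, 5.68 and 5.62 on MDA-MB-231 and 4.05, 3.41 and 3.72 on ZR-75-1 arrays, the order of CXCL1 and CXCL8. Like CXCL1, CCL2 passed the filter through the B6TC arrays alone, so a higher level in B6TC cells was close to built in. B6TC was 0.96 above MDA-MB-231 (limma adjusted p = 0.000103) and 2.85 above ZR-75-1 cells on the log2 scale (limma adjusted p = 6.94e-09), and without the third B6TC array 0.94 and 2.84. CCL28, a mucosal attractant of lymphocytes, had the reverse order at 238750_at, at 5.67, 5.70 and 5.79 in B6TC, 6.16, 6.17 and 6.16 in MDA-MB-231 and 6.47, 6.77 and 6.62 in ZR-75-1 cells. B6TC was lower than MDA-MB-231 by a log2 difference of -0.44 (limma adjusted p = 0.000336), but at its probe set 224240_s_at the difference was -0.05 and not called.

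Of a list of 24 genes of NF-kB, its regulators and targets, cytokines, cytokine receptors and the transcription factor CEBPB, 16 were tested. Between B6TC and MDA-MB-231 cells 9 were higher, 2 lower and 5 not called, against 36.5% and 28.5% of all genes called higher and lower, with a median log2 difference of 0.22, against 0.04 over all genes tested. Without the third B6TC array 10 were higher, and the 2 lower ones, NFKBIB and RELB, were not called (limma adjusted p = 0.0513 and 0.0568). IL1B, interleukin-1 beta, a strong inducer of CXCL8, had the largest difference. At 205067_at it read 7.14, 7.21 and 7.02 on B6TC, 5.16, 5.65 and 5.56 on MDA-MB-231 and 5.35, 5.30 and 5.35 on ZR-75-1 arrays. This probe set passed the filter through the B6TC arrays alone, so a higher level in B6TC cells was close to built in. B6TC was 1.67 above MDA-MB-231 (limma adjusted p = 1.01e-06) and 1.79 above ZR-75-1 on the log2 scale (limma adjusted p = 8.3e-08), and the difference from MDA-MB-231 at the probe set 39402_at was 1.79. Without the third B6TC array the differences at 205067_at were 1.72 and 1.84.

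The next largest differences between B6TC and MDA-MB-231 cells were those of NFKBIZ, a cofactor of NF-kB on inflammatory promoters, at 0.70, NFKBIA, its inhibitor and own target, at 0.66, and IL1R1, the receptor of IL1B, at 0.65, all higher in B6TC. Between B6TC and ZR-75-1 cells 9 of the 16 were higher, 3 lower and 4 not called, against 42.8% and 41.6% of all genes, with a median of 0.43, against -0.005 over all genes. TNFAIP2, a target of tumor necrosis factor, was 2.45 higher, LIF, a cytokine, 1.95 higher and TNFAIP3, an inhibitor of NF-kB, 1.81 higher in B6TC, while IL1R1 differed by -2.14. For MDA-MB-231 against ZR-75-1 cells 8 were higher, 5 lower and 3 not called, against 42.5% and 41.9% of all genes, with a median of 0.16, led by IL1R1 at -2.79, TNFAIP2 at 2.46, REL, an NF-kB subunit, at -2.24 and LIF at 2.06. The probe sets of RELA, the main activating subunit, disagreed, at 0.25 and -0.49 between B6TC and MDA-MB-231 cells. For MDA-MB-231 against ZR-75-1 cells they stood at -0.33 and 0.32.

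Of 12 genes that cut chemokines or control the decay of their mRNA, 9 were tested. Between B6TC and MDA-MB-231 cells 5 were higher and 4 lower, against 36.5% and 28.5% of all genes, with a median log2 difference of 0.27, against 0.04 over all genes. HNRNPD, which binds AU-rich mRNA, was 0.73 higher, ZFP36L1, which promotes decay of such mRNA, 0.66 higher and ADAM17, a sheddase, 0.50 higher in B6TC, while ADAM10, the main sheddase of CXCL16, differed by -0.40. The probe sets of 3 of these genes disagreed in direction, at -0.17 for HNRNPD (213359_at), -0.72 for ZFP36L1 (211965_at) and -0.24 for ADAM17 (205745_x_at). KHSRP, also counted as higher at 0.27, differed by -0.44 at 204371_s_at and by -0.27 at 212303_x_at. The count of 5 higher thus depends on the choice of probe set. ZFP36L2, counted as lower at -0.18, differed by -1.16 at 201369_s_at and by -0.90 at 201367_s_at. ADAM10 differed by -0.61 at 202604_x_at and by -0.88 at 214895_s_at. Between B6TC and ZR-75-1 cells 5 were higher and 3 lower (median 0.22), against 42.8% and 41.6% of all genes, led by ZFP36L2 at -1.79, MMP9, a matrix protease, at -1.29, ZFP36L1 at 1.26 and ZFP36 at -1.20. HNRNPD, counted there as higher at 0.22, differed by -0.32 at 209330_s_at and by -0.30 at 213359_at. ELAVL1, not called there at 0.02, differed by 0.69 at 201727_s_at and by 2.27 at 227746_at. For MDA-MB-231 against ZR-75-1 cells 5 were higher and 4 lower (median 0.16), against 42.5% and 41.9% of all genes, led by ZFP36L2 at -1.61, ZFP36 at -1.49, ADAM10 at 1.24 and MMP9 at -1.13. In this comparison HNRNPD, counted as lower at -0.51, differed by 1.62 at 221480_at and by 1.28 at 229129_at. The counts for B6TC were the same without the third B6TC array, 5 and 4 against MDA-MB-231 and 5 and 3 against ZR-75-1 cells.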

How the data were processed

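The authors deposited log2 expression values of 9 Affymetrix arrays, made, per the labels, with Affymetrix Expression Console and RMA, while the study's methods name GC-RMA; versions are not given in the sources used here, and background correction could not be repeated. Of 54675 probe sets 62 were controls. Symbols came from the platform table, with 41091 probe sets of a single symbol, 1801 of several and 11721 of none. limma 3.58.1 in R 4.3.3 was fitted with 1 mean per line over probe sets that reached a log2 value of 6 on 3 or more arrays, and p-values were adjusted by Benjamini and Hochberg within each comparison with a threshold of 0.05. The procedure was tested on simulated data. The number of arrays limits the precision. A gene of a list was read at its probe set with the highest mean, and in each comparison the 4 called genes of a list with the widest difference were named. Other genes were named as receptors of the ligands. The ligands and the lists were chosen with earlier results of these data known. Promoters and positions are from RefSeq on GRCh38.p14. Figures were drawn with matplotlib 3.10.9. Alternatives were other filters, robust regression, other variances and scalings, other choices of probe sets and arrays, a block, a fold minimum and leaving out each array.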

Additional observations from a re-analysis of the deposited data

How the results depend on the processing

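The counts of ligand probe sets called were 2 for B6TC against MDA-MB-231, 5 for B6TC against ZR-75-1 and 5 for MDA-MB-231 against ZR-75-1, and 2 probe sets had all 3 pairs of lines called. Without the filter the counts were 5, 9 and 9 of 18 probe sets, with all 3 pairs called at 3. With a filter at 7, and again without probe sets that may bind several transcripts, 1 was called between B6TC and MDA-MB-231 cells and 1 had all 3 pairs called, since CXCL1 at 7 and CXCL8 in the other case were left out by construction. Robust regression called 4 between B6TC and MDA-MB-231 cells, and 4 with all 3 pairs called, adding the CXCL12 probe sets at -0.17 (limma adjusted p = 0.0351) and 0.29 (limma adjusted p = 0.00193); the cause was not tested. Over the alternatives that keep the filter or drop it with all arrays, other than the fold minimum, adjusted p ran between 0.0132 and 0.667 at 203666_at and between 0.00193 and 0.228 at 209687_at for that comparison, and with an array left out and no filter it reached 0.776 and 0.358. Leaving out each array in turn gave 2 to 3 called between B6TC and MDA-MB-231 and 5 to 5 in both comparisons with ZR-75-1 cells. The third call was CXCL12, at 209687_at without the second B6TC array (0.62, limma adjusted p = 0.00846) and at 203666_at without the third (-0.26). With the replicate number as a block the counts were 2, 5 and 5, and 2 with all 3 pairs called; arrays of the same number correlated between -0.10 and 0.18 in their deviations, so the numbers were not taken as pairs. Of the single values under alternatives, 242 kept their direction and side of the threshold or were uncalled in both, and the 4 CXCL12 values named here were called in addition. Leaving out arrays without the filter, the lists without the third B6TC array and the letters GGAATTTCC were chosen after seeing the data. Low levels that were not shown to lie above background limit CXCL3, CXCL5, CXCL6, CCL5 and CCL20 in all lines and CXCL1 and CXCL2 in both parental lines. They also limit CXCL12 and CXCL16 in B6TC and MDA-MB-231 cells and CXCL8 in ZR-75-1 cells. The CXCL2 probe sets 230101_at and 1569203_at and the CXCL8 probe set 211506_s_at were under 6 on all arrays.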
